A study of Mus musculus with 11 samples.

Results

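Expression of 8 genes of PPARα signaling and fatty acid oxidation was followed in livers of FSH-treated and saline-treated mice. The genes were chosen by name from the 36788 identifiers of the deposited table: Ppara, Cpt1a, Cpt2, Crot, Ehhadh, Acadm, Acadl and Pdk4. All of the mice were WT C57BL/6 females over 12 weeks of age, and both groups had been ovariectomized (OVX) and fed a high-fat diet. The study's methods, however, describe a mixed genetic background for all mice. The FSH group held 5 liver libraries (FSH1, FSH2, FSH3, FSH4 and FSH6) and the saline group 6 (OVX1 to OVX6), each called a liver here, so the controls also lacked ovaries and the comparison concerns FSH added to that state. Injections were given daily, and the liver transcriptomes were compared to ask how FSH acts on hepatic steatosis.

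PPARα is a nuclear receptor that binds DNA together with a retinoid X receptor and switches on genes for burning fatty acids, above all in the fasting liver. Long fatty acids enter mitochondria through the carnitine shuttle and are shortened there by acyl-CoA dehydrogenases and their partner enzymes, while peroxisomes shorten the longest and branched ones. The acetyl-CoA that results is largely turned into ketone bodies in hepatocytes, and pyruvate dehydrogenase kinases spare glucose by slowing the conversion of pyruvate to acetyl-CoA.

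Values are CPM, the reads of a gene scaled so that every library has the same total over all genes. Between 10801891 and 19909327 reads stood behind a library, and the lowest number behind any value of the 8 genes was 177 reads (Pdk4), so that counting error was small beside the spread between livers. Fold changes are on the log2(CPM + 0.5) scale, FSH minus saline, from limma over the 12733 genes that averaged 0.5 CPM or more, and all 8 genes passed that filter. Summed hepatocyte markers (Alb, Apoa1, Apob, Ttr, Cps1, Serpina1c, Tat and Pck1) lay between 99053 and 116464 CPM with FSH and between 94229 and 119818 CPM with saline. Adipocyte and skeletal muscle markers, which would mark tissues rich in oxidation genes of their own, summed to at most 0.612 and 0.166 CPM in any liver. Stellate cell markers summed to 380.5 to 465 CPM with FSH and 456 to 557 CPM with saline, with 1 of 6 called lower. Cholangiocyte markers summed to 47.6 to 69.4 CPM with FSH and 38.3 to 55.7 CPM with saline, with 1 of 5 called higher, and sinusoidal endothelial markers to 122 to 182 CPM and 139.6 to 166 CPM, with 1 of 5 called lower. The part of these cells in the differences below was not tested. Dbp, a clock output gene named after its values were seen, also moved with the groups, at 42.6 to 121 CPM with FSH and 3.40 to 4.95 CPM with saline. Ppara and several of its targets are known to cycle over the day. The hours at which the livers were taken are not given in the sources used here, so time of day and treatment cannot be told apart for the differences below. In whole tissue, fewer cells of a type and less RNA per cell cannot be told apart.

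Crot and Acadm, 2 of the 8 genes, passed an adjusted p of 0.05, and both fell with FSH. Of all genes tested, 10.6% passed this threshold, 4.41% in the lower and 6.19% in the higher direction. Crot was also past the study's second threshold, an absolute log2 fold change over 1, which 1.83% of genes passed together with the first (0.942% lower and 0.887% higher). The groups did not overlap for the same 2 genes, against 6.67% of all genes tested (2.72% lower and 3.95% higher). The other 6 genes had log2 fold changes between -0.50 and 0.50 with adjusted p-values from 0.0579 to 0.982. The genes were picked by name with earlier results of these data known. No test was therefore made of their share of calls against that of all genes.

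**Figure D1:**
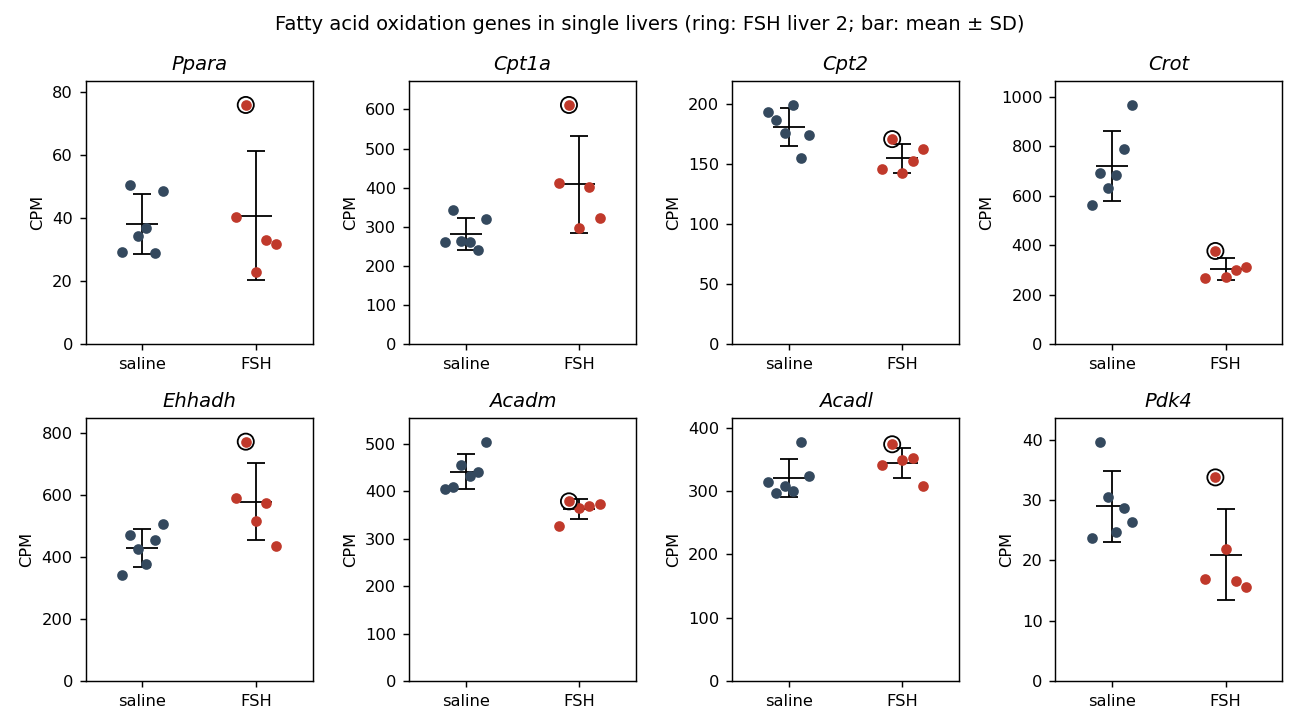
Points are single livers, with CPM on linear axes that start at 0, for 6 saline and 5 FSH livers in each panel; bars give the mean ± SD and the ring marks FSH liver 2. The groups are apart for Crot (269.6 to 377 against 563 to 968 CPM) and for Acadm (328 to 379 against 404 to 505 CPM), and they overlap in the other 6 panels.

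Ppara, the receptor itself, is found at 85734983 to 85802819 of chromosome 15 (GRCm38, plus strand; ENSMUSG00000022383). FSH livers 1, 2, 3, 4 and 6 had 40.2, 75.8, 22.9, 33.1 and 31.8 CPM, and the saline livers ranged from 28.9 over a median of 35.5 to 50.6 CPM. The FSH group spanned the whole saline range, with liver 2 above it and liver 3 below it. The means were 40.8 ± 20.5 CPM (SD, n = 5) and 38.1 ± 9.47 CPM (SD, n = 6). The log2 change was 0.01 with a 95% interval from -0.51 to 0.53 (limma adjusted p = 0.982), so changes within that interval were not excluded. Intervals are those of single genes, without adjustment for the number of genes.

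Cpt1a encodes the liver form of carnitine palmitoyltransferase 1 on the outer mitochondrial membrane, the gate through which long fatty acids enter and the step that malonyl-CoA blocks (ENSMUSG00000024900, chromosome 19, 3322334 to 3385733, plus strand). Values with FSH were 411, 611, 297, 402 and 323 CPM in livers 1, 2, 3, 4 and 6, and those with saline ran from 241 over a median of 264 to 344 CPM. Of the FSH livers, 3 and 6 lay inside the saline range and the others above it. Means were 409 ± 123 CPM (SD, n = 5) and 282 ± 40.2 CPM (SD, n = 6), with a log2 change of 0.50 (standard error 0.16, interval 0.16 to 0.84, limma adjusted p = 0.0579). The exact permutation test of this gene alone gave p = 0.0173 (two-sided). Cpt1a crossed the threshold without FSH liver 3 (adjusted p = 0.0323), without FSH liver 6 (adjusted p = 0.0383) and without saline liver 2 (adjusted p = 0.0443). Of the 11 alternative fits other than leaving out a liver, 4 called Cpt1a. They were edgeR (adjusted p = 0.0427), upper-quartile scaling (0.0379), array weights (0.0389) and the replicate block (0.0465).

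Cpt2 encodes the partner enzyme on the inner membrane, which hands the acyl group back to coenzyme A (ENSMUSG00000028607, chromosome 4, 107903981 to 107923610, minus strand). It had 146, 171, 143, 153 and 163 CPM in FSH livers 1, 2, 3, 4 and 6, and 155, 181 and 199 CPM as lowest, median and highest saline values. FSH livers 1, 3 and 4 lay below the lowest saline liver, and 2 and 6 inside the saline range. The log2 change was -0.22 (interval -0.40 to -0.04, limma adjusted p = 0.111), which did not pass the threshold. The intervals of Cpt1a and Cpt2 lay on opposite sides of 0.

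Acadm and Acadl encode the medium-chain and long-chain acyl-CoA dehydrogenases, which begin each round of β-oxidation in the mitochondrial matrix. Acadm (ENSMUSG00000062908, chromosome 3, 153922357 to 153944632, minus strand) had 328, 379, 366, 369.8 and 373 CPM in FSH livers 1, 2, 3, 4 and 6, while the saline livers had 404 at the lowest, 437 at the median and 505 at the highest. Every FSH liver was below every saline liver, by a small margin. Means were 363 ± 20.5 CPM (SD, n = 5) and 441 ± 37.0 CPM (SD, n = 6), and the fall was -0.28 in log2 (standard error 0.08, limma adjusted p = 0.0369). The exact permutation test gave p = 0.00216, the smallest that 5 livers against 6 allow. The fold change of Acadm kept its size when livers were left out (-0.30 to -0.24), but its adjusted p rose over 0.05 without FSH liver 1 (0.118), 3 (0.0714) or 4 (0.0707) or saline liver 3 (0.0756), 4 (0.0542), 5 (0.0543) or 6 (0.0713).

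Acadl (ENSMUSG00000026003, chromosome 1, 66830839 to 66863277, minus strand) had 342, 374, 349, 352 and 308 CPM in FSH livers 1, 2, 3, 4 and 6, against 297, 311 and 378 CPM as lowest, median and highest saline values. The groups covered the same range. The log2 fold change of Acadl was 0.11 (interval -0.07 to 0.29, limma adjusted p = 0.464).

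Crot and Ehhadh are the peroxisomal members. Crot encodes carnitine O-octanoyltransferase, which loads the medium-chain products of peroxisomal oxidation onto carnitine so that they can leave for the mitochondria. Its position in GRCm38 is chromosome 5, 8966033 to 8997324, on the minus strand (ENSMUSG00000003623), where its exons overlap the predicted genes Gm37153 on the other strand and Gm27941 on the same strand, whose reads may not be separable from its own. Crot had 269.6, 377, 269.9, 298 and 311 CPM in FSH livers 1, 2, 3, 4 and 6, and 563, 688 and 968 CPM as lowest, median and highest saline values. The highest FSH liver was well below the lowest saline liver. Means of 305 ± 44.1 CPM (SD, n = 5) and 721 ± 142 CPM (SD, n = 6) put Crot 2.36-fold lower with FSH. The log2 change was -1.23 (standard error 0.13, interval -1.51 to -0.95, limma adjusted p = 4.07e-05), rank 41 by p among the 12733 genes. Crot passed the adjusted p in each of the 22 alternative fits.

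Ehhadh encodes the bifunctional enzyme that carries out the middle steps of a peroxisomal round (ENSMUSG00000022853, chromosome 16, 21761287 to 21787807, minus strand). FSH livers 1, 2, 3, 4 and 6 had 590.3, 771, 515, 572 and 435 CPM, and the saline livers had 342, 439 and 505 CPM as lowest, median and highest values. Liver 6 was the one FSH liver inside the saline range. Its log2 fold change was 0.41 (interval 0.12 to 0.70, limma adjusted p = 0.0669), and without FSH liver 6 it was 0.51 (adjusted p = 0.0214). The interval of Ehhadh lay above 0 and that of Crot below it, although both genes serve the same organelle.

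Pdk4 encodes pyruvate dehydrogenase kinase 4, a kinase that fasting, PPARα and glucocorticoids are known to raise in liver and muscle (ENSMUSG00000019577, chromosome 6, 5483351 to 5496309, minus strand). It had 17.0, 33.8, 21.9, 16.5 and 15.5 CPM in FSH livers 1, 2, 3, 4 and 6, against 23.7, 27.6 and 39.7 CPM as lowest, median and highest saline values. All FSH livers but liver 2 were below the lowest saline liver. The log2 change was -0.50 (interval -0.89 to -0.11, limma adjusted p = 0.102), and the exact permutation test gave p = 0.0563 (two-sided). Without FSH liver 2 the log2 fold change of Pdk4 was -0.68 and the adjusted p was 0.00918. With all livers kept, Pdk4 was also called with array weights (adjusted p = 0.0319).

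**Figure D2:**
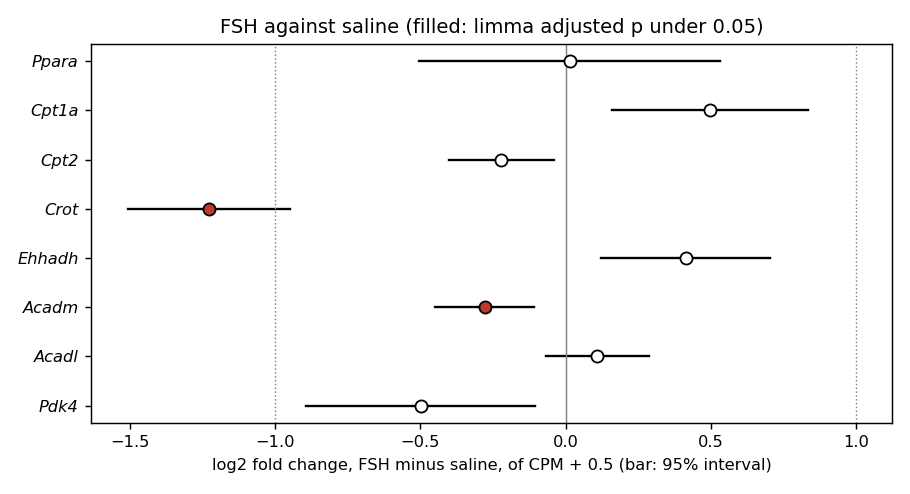
Points give the log2 fold change (FSH minus saline, of CPM + 0.5) of each gene and bars its 95% interval; filled points passed an adjusted p of 0.05 and dotted lines mark the study's fold-change threshold. Crot at -1.23 stands beyond that line, Acadm at -0.28 does not, and the other 6 points are open.

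The start regions of the 2 genes that fell are shown, with that of Cpt1a as the other of the 8 whose RefSeq promoter window held a PPAR-type half-site. The windows run from 250 bases before to 50 bases after the RefSeq start in GRCm38.p6, and only bases before the start and outside annotated exons are printed, 5′ to 3′ on the strand of the gene. Capitals mark the half-site AGGTCA, here read on the opposite strand.
Crot, chr5:8997325-8997396, minus strand: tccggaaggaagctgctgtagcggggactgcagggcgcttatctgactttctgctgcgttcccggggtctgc
Acadm, chr3:153944644-153944893, minus strand: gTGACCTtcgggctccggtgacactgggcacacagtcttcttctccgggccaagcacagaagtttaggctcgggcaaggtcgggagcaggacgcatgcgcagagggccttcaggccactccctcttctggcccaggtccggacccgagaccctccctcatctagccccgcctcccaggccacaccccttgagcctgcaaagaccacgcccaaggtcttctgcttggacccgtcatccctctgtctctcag
Cpt1a, chr19:3323051-3323284, plus strand: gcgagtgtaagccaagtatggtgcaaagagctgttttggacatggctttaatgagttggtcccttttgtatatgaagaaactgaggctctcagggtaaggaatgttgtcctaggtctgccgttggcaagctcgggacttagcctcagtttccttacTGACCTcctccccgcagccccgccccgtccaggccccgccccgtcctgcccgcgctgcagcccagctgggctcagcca

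On both strands, AGGTCA was found in the windows of 2 of the 8 genes and in 16.3% of all 32851 promoter windows of the same length. Its first base lay 249 bases before the start in Acadm and 94 bases before it in Cpt1a. The paired element of PPARα and its partner, 2 copies of AGGTCA in the same direction with 1 base between them, was in none of the 8 windows and in 0.0396% of all windows. A looser form that includes it, in which the fourth base of each copy may be any base, was in none of the 8 and in 0.381% of all. The clock element CACGTG was in 7.15% of all windows, the D-box TTATGTAA in 0.938% and the glucocorticoid element, AGAACA and TGTTCT with 3 bases between them, in 0.00913%, and none of these 3 was in the windows of the 8 genes. These letters were looked for in the windows only, and elements elsewhere in the genes were not searched.

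FSH liver 2 had the highest value of the 5 FSH livers for each of the 8 genes, while it was the highest for 33.49% of all genes tested. This was noticed after the values had been seen. Its Ppara level was 2.34-fold the median of the other 4 FSH livers, Pdk4 was 2.02-fold, Cpt1a 1.69-fold, Ehhadh 1.42-fold and Crot 1.33-fold. For Cpt2, Acadl and Acadm the ratio was 1.15, 1.08 and 1.03, close to the median of 1.05 over all genes tested. The spread of Ppara in the FSH group, a coefficient of variation of 50.4%, was 22.1% without this liver, against 24.9% in the saline group. Without it the log2 fold change of Ppara was -0.24 (limma adjusted p = 0.472) and that of Cpt1a was 0.34 (limma adjusted p = 0.107), while Crot stayed lower at -1.31 (limma adjusted p = 4.47e-05). The same liver was the highest of the FSH group for 6 of the 6 tested ω-oxidation genes, where its median ratio to the other FSH livers was 2.23. In the other 7 lists that median lay between 1.104 and 1.352, and liver 2 was the highest for 11 of 12 genes of activation and the carnitine shuttle and for 5 of 16 partners and coregulators. Nothing in the labels sets liver 2 apart, and the reason for its levels was not tested.

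**Figure D3:**
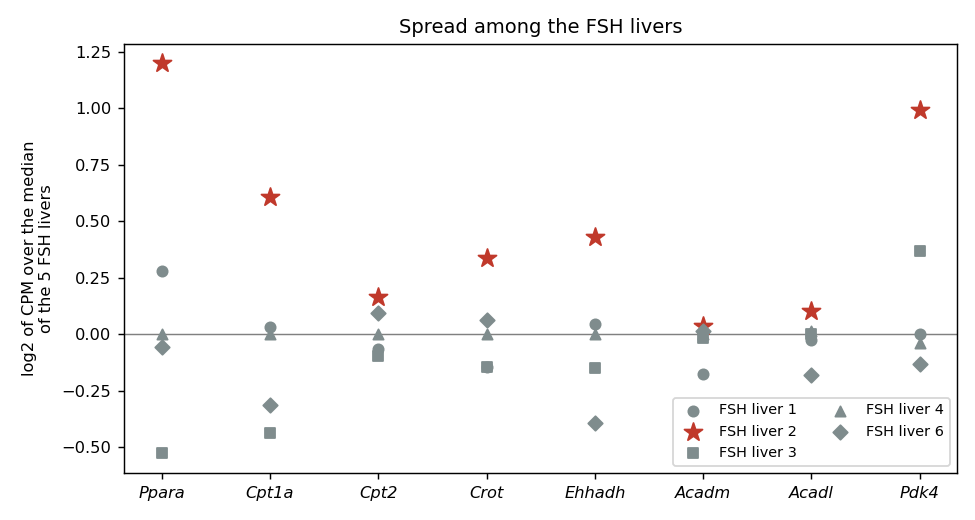
For each gene, the log2 of a liver's CPM over the median of the 5 FSH livers is drawn, with 0 at that median. FSH liver 2 (star) is the highest point for all 8 genes, farthest for Ppara and Pdk4 and near the other livers for Acadm and Acadl.

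Levels of different genes were set side by side per kilobase of exon. In the saline livers the order was Acadl with 159.7 ± 15.0 CPM per kb, Ehhadh with 144 ± 20.3, Crot with 132 ± 26.1, Acadm with 113 ± 9.45, Cpt2 with 75.6 ± 6.71, Cpt1a with 36.9 ± 5.25, Ppara with 9.92 ± 2.47 and Pdk4 with 8.25 ± 1.66 CPM per kb (SD, n = 6). The ranges of neighbors overlapped from Acadl down to Acadm and again between Ppara and Pdk4, and did not overlap from Acadm to Cpt2, from Cpt2 to Cpt1a and from Cpt1a to Ppara. In the FSH livers Ehhadh came first with 193 ± 41.7 CPM per kb and Acadl second with 172 ± 11.9 CPM per kb (SD, n = 5). Crot moved from rank 3 to rank 5, at 55.9 ± 8.08 CPM per kb (SD, n = 5). With the length of the longest transcript in place of all exons, Crot was at rank 1 in the saline livers (241 CPM per kb) and at rank 4 in the FSH livers (102 CPM per kb).

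Genes were ranked by how near their pattern over the 11 livers was to that of Ppara and of Crot. The measure was the mean absolute difference of log2 values, each gene centered on its own mean. Ranked were 8610 genes that averaged 5 CPM or more, without predicted Gm and Rik genes and identifiers lacking a unique symbol. Nearest to Ppara were Dyrk2, Abcc2 and Dock8, with mean differences of 0.104, 0.129 and 0.138. Cpt1a was the nearest of the 8 genes to Ppara, at rank 475 with a difference of 0.264. Nearest to Crot were Asap2, Ndrg1 and Gldc, with mean differences of 0.163, 0.164 and 0.169. Their log2 fold changes were -1.19, -1.20 and -1.50, beside -1.23 for Crot. The centering was over both groups, so the ranking includes the difference between them. Of the 8 genes, Pdk4 was nearest to Crot at rank 254.

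Around these genes, 121 further genes of the pathway were followed in 8 lists, and 114 of them were tested. Of these, 26 passed an adjusted p of 0.05, 14 higher and 12 lower with FSH, which is 22.8% of those tested beside 10.6% of all genes. The lists were chosen with earlier results of these data known, and no test was made of this share. The median log2 fold change of the 114 genes was 0.03, against 0.02 over all genes tested.

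**Figure D4:**
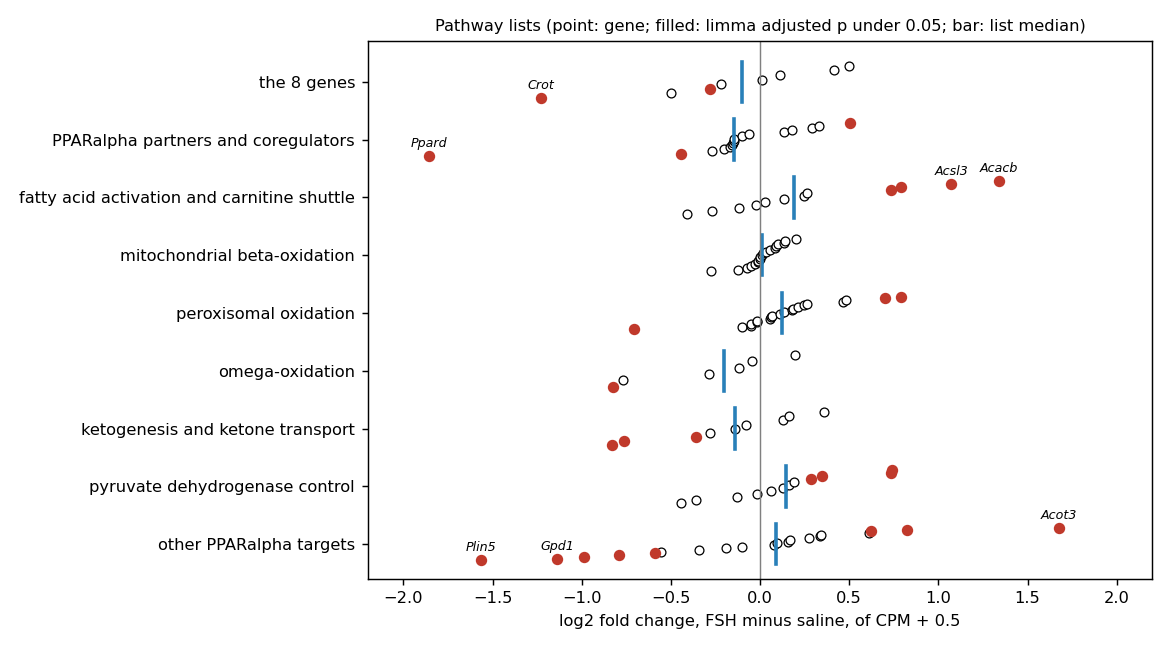
Each point is the log2 fold change (FSH minus saline, of CPM + 0.5) of a tested gene, by list; filled points passed an adjusted p of 0.05, bars mark list medians, and genes past the fold-change threshold are named. The mitochondrial list lies close to 0 with no filled point, while the list of other PPARα targets reaches from -1.57 (Plin5) to 1.68 (Acot3).

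Among 16 partners and coregulators of PPARα, 1 gene rose and 2 fell, and the median log2 fold change of the list was -0.15. Ppard, which encodes the sister receptor PPARδ, averaged 6.15 ± 1.35 CPM under FSH (SD, n = 5) and 23.96 ± 6.65 CPM under saline (SD, n = 6), a log2 change of -1.86 (standard error 0.18, limma adjusted p = 2.08e-05). No FSH liver reached the lowest saline value of Ppard. Hnf4a, a master regulator of hepatocyte genes, fell by 0.44 on the log2 scale (limma adjusted p = 0.0369) and was not called without FSH liver 1, 2, 3 or 4 or saline liver 2, 4 or 6, with adjusted p-values from 0.0683 to 0.1001. Rxrg, a minor retinoid X receptor of liver at 9.72 ± 1.43 CPM (SD, n = 5) against 6.73 ± 1.12 CPM (SD, n = 6), rose by 0.50 in log2 (limma adjusted p = 0.0267). Without FSH liver 1 or 3 the adjusted p of Rxrg was 0.0837 or 0.0755, and the list held 1 call. Rxra, the main partner of PPARα in liver and named here after its values were seen, had a log2 change of -0.16 (limma adjusted p = 0.423).

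Of 12 tested genes for fatty acid activation and the carnitine shuttle, 4 rose, with a median log2 fold change of 0.19 over the list. Acacb, the acetyl-CoA carboxylase that makes malonyl-CoA beside the mitochondria and thereby restrains CPT1, had 241 ± 88.1 CPM (SD, n = 5) against 98.5 ± 48.3 CPM (SD, n = 6), a log2 change of 1.34 (limma adjusted p = 0.00838). The acyl-CoA synthetase genes Acsl5 (0.79, limma adjusted p = 0.00611), Acsl4 (0.73, limma adjusted p = 0.0134) and Acsl3 (1.07, limma adjusted p = 0.021) rose as well. Acsl3 was not called without FSH liver 1 (adjusted p = 0.0635) or 3 (adjusted p = 0.057).

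Beyond Acadm and Acadl, 19 genes of mitochondrial β-oxidation were tested and limma called 0 of them, with 0 at an unadjusted p under 0.05 and 0 called by edgeR or voom on the recovered reads. Their log2 fold changes lay between -0.27 and 0.20 with a median of 0.01, and their 95% intervals between -0.55 and 0.44. The smallest p-values were those of Etfdh, which passes electrons from the dehydrogenases to the respiratory chain (-0.27, limma adjusted p = 0.205), and Acad9 (0.20, limma adjusted p = 0.266). Without FSH liver 2, Etfdh was at -0.40 (adjusted p = 0.0328).

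Of 20 genes of peroxisomal oxidation, 2 rose and 1 fell, and the list's median was 0.12. Acox2, the oxidase for branched fatty acids and bile acid side chains, averaged 92.6 ± 4.82 CPM under FSH (SD, n = 5) and 152 ± 10.6 CPM under saline (SD, n = 6), a log2 change of -0.71 (standard error 0.07, limma adjusted p = 3.93e-05). Acox2 had no overlap between groups. Abcd3, which carries such fatty acids into the peroxisome, rose by 0.70 in log2 (limma adjusted p = 0.0148). Eci3 rose by 0.79 at a low level of 3.50 ± 1.02 CPM (SD, n = 5) against 1.79 ± 0.498 CPM (SD, n = 6; limma adjusted p = 0.0205; without FSH liver 3 or 4, 0.0623 and 0.0563).

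Of 6 tested genes of ω-oxidation, 1 fell, and the list's median was -0.20. Cyp4a10, a fatty acid hydroxylase whose reads may be shared with its close paralogs, had 547 ± 240.1 CPM (SD, n = 5) against 936 ± 249 CPM (SD, n = 6), a log2 change of -0.82 (limma adjusted p = 0.0301). It was not called without FSH liver 1 (adjusted p = 0.09), 3 (0.0816) or 4 (0.073) or saline liver 4 (0.0597), 5 (0.0532) or 6 (0.0575), which left the list with 0 calls, and the list held 2 without FSH liver 2. In the fits other than leaving out a liver, the list held 0 calls without a filter on low values. It held 2 with median-of-ratios scaling, array weights or the replicate block, and 1 in the others.

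Of 9 genes for ketogenesis and ketone transport, 3 fell, and the list's median was -0.14. Slc16a1, the monocarboxylate transporter 1 through which ketone bodies and lactate cross the membrane, averaged 44.4 ± 8.999 CPM under FSH (SD, n = 5) and 78.4 ± 9.23 CPM under saline (SD, n = 6), a log2 change of -0.83 (limma adjusted p = 0.000944). Slc16a6, a transporter for ketone body export, fell by 0.76 on the log2 scale (limma adjusted p = 0.0103). The list held 5 calls without FSH liver 2, and 2 calls without FSH liver 1, 3 or 4 or saline liver 2, 4 or 6. With all livers kept, the alternatives gave 2 to 4 calls in this list.

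Of 12 tested genes that control pyruvate dehydrogenase, 4 rose, and the list's median was 0.14. Pdk1, a kinase of the same family as Pdk4, had 176 ± 26.6 CPM (SD, n = 5) against 106 ± 20.2 CPM (SD, n = 6), a log2 change of 0.74 (limma adjusted p = 0.00314). Dlat, the acetyltransferase core of the complex, rose by 0.73 (limma adjusted p = 0.00534). The subunit gene Pdhb (0.35, limma adjusted p = 0.0361) and the kinase gene Pdk2 (0.29, limma adjusted p = 0.044) were called by a narrow margin. Pdhb was not called without FSH liver 1, 3 or 4 or saline liver 2, 4, 5 or 6 (adjusted p up to 0.103), and Pdk2 kept its call only when FSH liver 3 was the one left out (0.0505 to 0.118 otherwise). The list held 2 calls without FSH liver 1 or 4 or saline liver 2, 4, 5 or 6. The interval of Pdk4 lay below 0 while those of Pdk1 and Pdk2 lay above it.

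Of 20 tested genes in the list of other PPARα targets, 3 rose and 5 fell, and the list's median was 0.09. Acot3 and Acot4, neighboring peroxisomal acyl-CoA thioesterase genes whose reads could be shared, rose by 1.68 (limma adjusted p = 6.98e-06) and 0.83 (limma adjusted p = 0.000463), and the groups did not overlap for either. Gpd1, the cytosolic glycerol 3-phosphate dehydrogenase, had 155 ± 30.1 CPM (SD, n = 5) against 339 ± 46.0 CPM (SD, n = 6), a log2 change of -1.14 (limma adjusted p = 6.06e-05). Plin5, a lipid droplet protein that tethers droplets to mitochondria, fell by 1.57 on the log2 scale (limma adjusted p = 0.00747). The other calls were G0s2, higher, and Angptl4, Cd36 and Retsat, lower. Some of these genes also answer to other factors, so the list does not measure the activity of the receptor.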

How the data were processed

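Liver RNA of mice was sequenced as paired reads by the authors in 5 libraries of the FSH group and 6 of the saline group, and they deposited CPM values for 36788 genes. The submitters' notes name FastQC 0.11.2, Trim Galore 0.3.3, cutadapt, STAR, RSEM and mm10; strand use, annotation and the role of each tool are not given in the sources used here, and the labels mention a papain digest that the methods do not. All values (100%) were whole multiples of 1 read within 0.05, which gave the depth. Nothing in the labels says that each library is a separate mouse, so p-values measure the spread between libraries. No 2 libraries of a group agreed within sampling noise (lowest mean chi-square 11.2 per gene).

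Symbols and positions came from GENCODE M21 by identifier (35555 named), and promoter windows from RefSeq GRCm38.p6, matched by symbol for all 8 genes. The 12733 genes that averaged 0.5 CPM or more entered limma 3.58.1 (R 4.3.3; eBayes with trend, Benjamini-Hochberg) as log2(CPM + 0.5). Exact permutation tests used all 462 splits into 5 and 6. The thresholds were those of the study, 0.05 for the adjusted p and 1 for the absolute log2 fold change. The functions were tested on simulated data.

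The 8 genes and all lists were chosen with earlier results of these data known. All 8 were named; from each list, up to 4 genes past the adjusted p were named, smallest p first, or 2 where none passed. The alternatives were other pseudocounts, filters, scalings, weights and trend, a replicate block, voom, edgeR 4.0.16 and leaving out each library. Values of some genes of the lists are not reported here.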

Additional observations from a re-analysis of the deposited data

Results flagged for a closer look

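In 64 groups of livers (32 genes, each in both treatments), 4 single livers lay far from the others by Dixon's criterion, which chance gives for about 1 group in 20. FSH liver 1 had 327.5 CPM of Acadm, below the other FSH livers at 366 to 379 CPM. Saline liver 5 had 378.1 CPM of Acadl, above the other saline livers at 297 to 324 CPM. FSH liver 6 had 445.2 CPM of Hnf4a, above the other FSH livers at 313 to 347 CPM. FSH liver 2 had 965 CPM of Cyp4a10, above the other FSH livers at 388 to 534 CPM.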

How the results depend on the processing

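The number of the 8 genes past an adjusted p of 0.05 was 2 and depended on the fit. It was 1 without a filter on low values and 1 without the intensity trend, where Crot alone remained. It was 3 with edgeR, which added Cpt1a. It was 4 with upper-quartile scaling, which added Cpt1a and Ehhadh, and 6 with array weights, which added Cpt1a, Cpt2, Ehhadh and Pdk4. The count ranged from 1 to 4 when each liver was left out in turn. It was 1 without FSH liver 1 or 4 or saline liver 3, 4, 5 or 6, and 4 without FSH liver 6. Over all genes, 1350 passed, with 803 to 1659 when a liver was left out (803 without FSH liver 1), 1435 with edgeR and 1428 with voom. Of 176 refitted values of the 8 genes, 152 kept their side of the threshold, 10 lost the call (all of Acadm), 14 gained one and 0 turned direction with a call. Ppara, called in none of them, ranged from -0.24 to 0.19 and changed sign in some, and the other 7 genes kept their direction. The order of levels per kilobase in the saline livers changed for 4 of the 8 genes with the length of the longest transcript.

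With the replicate block, 3 of the 8 genes passed (Crot, Pdk4 with an adjusted p of 0.0147 and Cpt1a with 0.0465), Acadm did not (0.0621), and 1210 of all genes passed. No FSH liver has the number of saline liver 5, so that liver adds nothing to the fold changes of this fit. They were the same for the 8 genes as without saline liver 5, where Acadm was not called either (limma adjusted p = 0.0543). Pdk4 and Cpt1a were not called there (limma adjusted p = 0.138 and 0.102). The replicate numbers were not taken as pairs. Deviations of same-numbered livers correlated over 0.1 in 2 of 5 pairs, and 2 of 10 livers correlated best with their own number. What else changed the calls with the block was not tested.

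The depth leaves at least 177 reads behind each value of the 8 genes, so the number of livers limits precision more than depth does.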
